A study of Homo sapiens with 6 samples.

Results

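The BCL2 family genes described here are 10 rows of a table of read counts for 58735 genes, chosen by gene symbol: BCL2, BCL2L1, MCL1, BCL2A1, BAX, BAK1, BID, BCL2L11, PMAIP1 and BBC3. The counts came from poly-A selected RNA of 786-O, an established human renal cancer cell line. There were 3 libraries of 786-O cells carrying sh-CBX7, a short hairpin RNA against CBX7, and 3 libraries of the same line carrying sh-Control, a control hairpin. The labels name no other allele or agent, give 1 hairpin label per group, do not say that the 3 libraries of a group were grown separately. The p-values below therefore cover the spread between these libraries alone, part or all of which may be technical. The series title places the comparison in work on CBX7, RNF26, TNF signalling, proliferation and sensitivity to kinase inhibitors in clear cell renal carcinoma.

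BCL2 family proteins decide whether the outer mitochondrial membrane stays intact when a cell is under stress. Pro-survival members (BCL2, BCL-XL from BCL2L1, MCL1 and A1 from BCL2A1) hold the pore-forming effectors BAX and BAK1 in check. BH3-only members (BID, BIM from BCL2L11, NOXA from PMAIP1 and PUMA from BBC3) bind the pro-survival proteins or activate the effectors, after which cytochrome c leaves the mitochondria and caspases are activated. Much of this control acts on proteins, through binding, cleavage and rapid turnover, which RNA counts do not show.

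In sh-CBX7 cells, transcripts of 3 BH3-only genes about doubled, that of BCL2A1 was about 3-fold higher and that of MCL1 rose by less, while the transcript of BCL2L1 fell by about as much as the BH3-only genes rose. BAX and BID rose slightly, BCL2, at a low level in both groups, fell, and BAK1 did not pass the test. All 10 members passed the filter on low counts. Of these, 7 were higher and 2 lower in sh-CBX7 by the edgeR quasi-likelihood test, at a Benjamini-Hochberg adjusted p below 0.05. Over all 14573 genes tested, 26.1% were higher and 27.2% lower, so that 53.3% were called in either direction. The median log2 fold change, given throughout as sh-CBX7 over sh-Control, was 0.38 over the 10 members and -0.01 over all genes tested. The groups did not overlap for 9 members, 7 higher and 2 lower, against 59.0% of all genes tested, with 29.1% higher and 29.9% lower.

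Libraries held 16473407 to 18868874 counts in sh-CBX7 and 16384151 to 18006814 in sh-Control. The targeted gene CBX7 had 143, 111 and 142 counts in the sh-CBX7 libraries, against 203, 240 and 183 counts in the sh-Control libraries, a log2 fold change of -0.71 (SE 0.13 and edgeR adjusted p = 5.41e-05). All 8 markers of renal carcinoma cells were detected, with PAX8 at 225.6 ± 2.85 CPM in sh-CBX7 and 282.2 ± 10.3 CPM in sh-Control (mean ± SD, n = 3 each), while the hypoxia marker CA9 averaged 1.05 CPM in sh-CBX7 and 1.14 CPM in sh-Control. CPM is the usual scale of counts relative to library size, here after TMM normalization. The blood cell markers PTPRC and CD3E and the endothelial marker CDH5 had 0 counts in the 6 libraries. Summed over the lists, 7 blood cell markers ran from 31.1 to 33.1 CPM in sh-CBX7 and from 58.2 to 71.6 CPM in sh-Control, 4 endothelial markers from 3.86 to 5.04 CPM in sh-CBX7 and from 2.22 to 3.13 CPM in sh-Control, and 5 fibroblast markers from 11 to 12.7 CPM in sh-CBX7 and from 10 to 11.7 CPM in sh-Control. In bulk RNA, fewer cells of a type and less RNA per cell cannot be told apart.

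**Figure D1:**
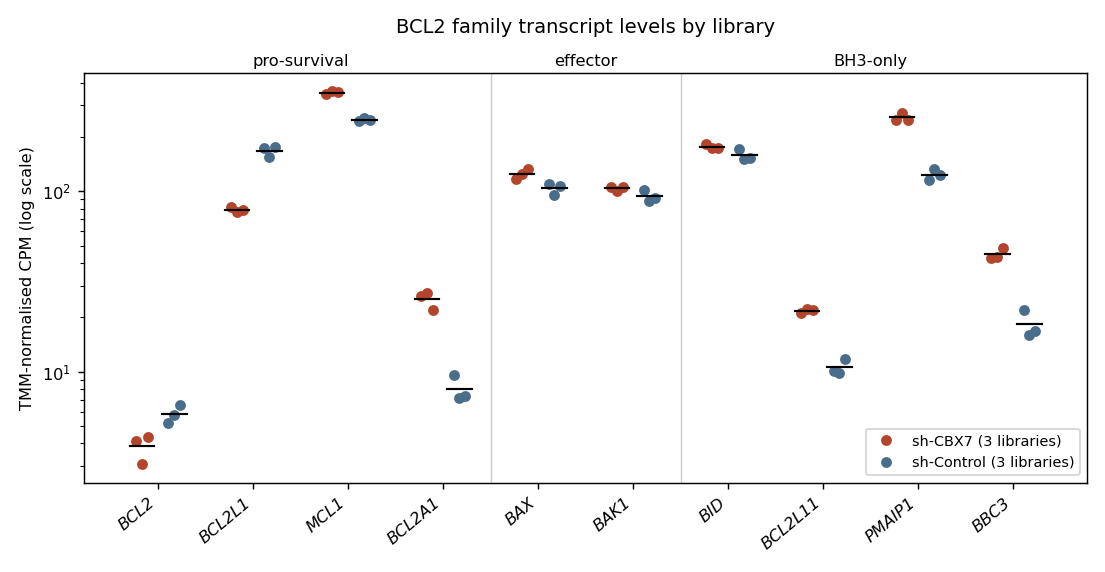
TMM-normalised counts scaled to library size (CPM, log axis) of the 10 members in each of the 3 sh-CBX7 libraries (left points of a gene) and the 3 sh-Control libraries (right points), with a black line at each group mean. The libraries of a group lie close together, and the groups are apart for every member but BAK1, with MCL1 the highest (352.5 CPM in sh-CBX7, 248.6 CPM in sh-Control) and BCL2 the lowest (3.86 CPM in sh-CBX7, 5.80 CPM in sh-Control).

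Among the pro-survival members, BCL2L1 (ENSG00000171552; GRCh38 chromosome 20, 31664452 to 31723989, minus strand) encodes BCL-XL, which keeps BAX and BAK1 inactive. It had 81.6, 76.6 and 78.7 CPM in the sh-CBX7 libraries, against 174.2, 154.2 and 175.6 CPM in the sh-Control libraries. Every sh-CBX7 library lay far below the lowest sh-Control library. The transcript was 2.13-fold lower in sh-CBX7, at a log2 fold change of -1.09 (SE 0.06 and edgeR adjusted p = 2.91e-12). It held place 391 from the lowest among the log2 fold changes of 14573 genes, and 3.30% of all genes tested were called with a fall of 1 or more (log2). Counts were made per gene, so the long and short splice forms of BCL2L1, of which the short one promotes death, were not resolved. The antisense gene ABALON, whose span lies within that of BCL2L1, had 23 to 41 counts in sh-CBX7 and 51 to 54 counts in sh-Control (log2 fold change -0.66, edgeR adjusted p = 0.0341). Its counts were under those of BCL2L1, which had 1269 to 1538 in sh-CBX7 and 2805 to 2898 in sh-Control.

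MCL1 (ENSG00000143384; chromosome 1, 150574551 to 150579738, minus strand) encodes a short-lived pro-survival protein that binds BAK1, BIM and NOXA. Its level was 346.0, 357.0 and 354.3 CPM in the sh-CBX7 libraries, against 243.6, 253.3 and 248.9 CPM in the sh-Control libraries. The lowest sh-CBX7 library was well above the highest sh-Control library, at a log2 fold change of 0.50 (SE 0.05 and edgeR adjusted p = 3.25e-08). MCL1 and BCL2L1 thus changed in opposite directions.

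BCL2A1 (ENSG00000140379; chromosome 15, 79960889 to 79971446, minus strand) encodes A1, a pro-survival protein best known from blood cells and a target of NF-kB. It stood at 26.1, 27.4 and 21.8 CPM in the sh-CBX7 libraries, against 9.56, 7.15 and 7.30 CPM in the sh-Control libraries. The log2 fold change of 1.65 (SE 0.13 and edgeR adjusted p = 2.48e-10), a 3.14-fold rise, was the highest of the 10 members and held place 257 from the highest among all genes tested. Of the 7 blood cell markers, PTPRC and CD3E had 0 counts in the 6 libraries. LAPTM5, which made up most of their summed level, was lower at 26.6 ± 1.08 CPM in sh-CBX7 and 57.8 ± 6.03 CPM in sh-Control (SD, n = 3 each), and CORO1A was lower too. CD14 was not called, and CD53 had too few counts to be tested, with 3, 9 and 3 in the sh-CBX7 libraries, against 2, 0 and 3 in the sh-Control libraries. The labels of the 6 libraries name the 786-O line and no other cell type. The cause of the rise of BCL2A1 was not tested.

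BCL2 (ENSG00000171791; chromosome 18, 63123346 to 63320128, minus strand), the founding pro-survival gene of the family, was measured from 78, 51 and 77 counts in the sh-CBX7 libraries, against 86, 104 and 106 counts in the sh-Control libraries. On the CPM scale it averaged 3.86 ± 0.68 in sh-CBX7 and 5.80 ± 0.67 in sh-Control (SD, n = 3 each). The groups did not overlap, and the log2 fold change was -0.58 (SE 0.18, edgeR adjusted p = 0.00796). This call rested on sh-CBX7 replicate 2, the library with the lowest value: without it the log2 fold change was -0.45 and the edgeR adjusted p = 0.0515.

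The effectors BAX and BAK1 encode the proteins that form the pore in the outer membrane. BAX (ENSG00000087088; chromosome 19, 48954815 to 48961798, plus strand) had 116.6, 123.8 and 132.8 CPM in the sh-CBX7 libraries, against 109.5, 95.2 and 106.9 CPM in the sh-Control libraries. The groups did not overlap but came close, and the log2 fold change was 0.26 (SE 0.07, edgeR adjusted p = 0.00238). BAK1 (ENSG00000030110; chromosome 6, 33572547 to 33580293, minus strand) had 106.2, 100.1 and 105.1 CPM in the sh-CBX7 libraries, against 102.2, 88.2 and 92.3 CPM in the sh-Control libraries. Its groups overlapped, through sh-Control replicate 1, and the log2 fold change of 0.14 (SE 0.07) had an edgeR adjusted p = 0.075. Without that library the log2 fold change of BAK1 was 0.20 and the edgeR adjusted p = 0.00295. Its processed pseudogene BAK1P1 had 18 to 20 counts in sh-CBX7 and 13 to 24 counts in sh-Control, few beside the counts of BAK1 itself.

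Of the BH3-only members, 4 of 4 were called higher in sh-CBX7, against 26.1% of all genes tested, with a median log2 fold change of 1.05. The call of BID, described below, was lost in 6 of 14 alternative fits. PMAIP1 (ENSG00000141682; chromosome 18, 59899948 to 59904306, plus strand) encodes NOXA, which binds MCL1 and A1 and marks MCL1 for degradation. It had 249.0, 272.8 and 249.5 CPM in the sh-CBX7 libraries, against 115.1, 132.0 and 123.3 CPM in the sh-Control libraries. The groups were far apart, at a 2.08-fold rise (log2 fold change 1.06, SE 0.06, edgeR adjusted p = 2.91e-12).

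BBC3 (ENSG00000105327; chromosome 19, 47220822 to 47232766, minus strand) encodes PUMA, a BH3-only protein that binds all pro-survival members. Its level was 42.5, 43.1 and 48.7 CPM in the sh-CBX7 libraries, against 22.1, 16.1 and 16.9 CPM in the sh-Control libraries. The log2 fold change of 1.29 (SE 0.10 and edgeR adjusted p = 5.09e-10) was the second highest of the 10 members, and sh-Control replicate 1 stood above the other two libraries of its group.

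BCL2L11 (ENSG00000153094; chromosome 2, 111119378 to 111168447, plus strand) encodes BIM, a strong activator of BAX and BAK1 that ERK signalling keeps low. It had 21.2, 22.3 and 21.9 CPM in the sh-CBX7 libraries, against 10.04, 9.84 and 11.8 CPM in the sh-Control libraries. The sh-CBX7 libraries agreed within a narrow range well above the sh-Control libraries (log2 fold change 1.05, SE 0.11, edgeR adjusted p = 3.16e-08). The gene lies within the long noncoding gene MIR4435-2HG on the other strand, which had 542 to 692 counts in sh-CBX7 and 473 to 573 counts in sh-Control (log2 fold change 0.19, edgeR adjusted p = 0.0784). These were above the counts of BCL2L11 itself, 370 to 400 in sh-CBX7 and 167 to 192 in sh-Control. The libraries were made with a directional kit, but the strand setting of the counting is not given in the sources used here, so for this pair, and for BCL2L1 and ABALON, reads of overlapping exons could not be told apart.

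BID (ENSG00000015475; chromosome 22, 17734138 to 17774770, minus strand) encodes the BH3-only protein that caspase-8 cleaves after death receptor signalling. It had 183.0, 173.4 and 173.9 CPM in the sh-CBX7 libraries, against 171.0, 151.8 and 153.3 CPM in the sh-Control libraries. The groups were close, and the log2 fold change of 0.16 (SE 0.06 and edgeR adjusted p = 0.0337) was small beside those of the other BH3-only members. The call was lost without any 1 of 5 libraries, with edgeR adjusted p = 0.061 to 0.166 in those fits, and without sh-Control replicate 1 it held.

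**Figure D2:**
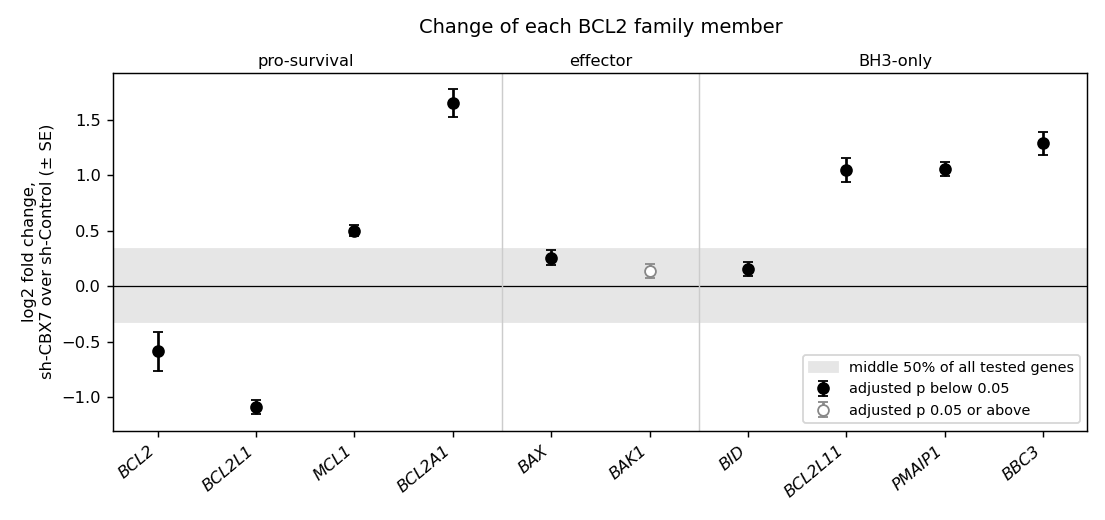
Log2 fold change (sh-CBX7 over sh-Control) of each member with its standard error from the edgeR fit over 3 sh-CBX7 and 3 sh-Control libraries, filled where the adjusted p was below 0.05; the grey band holds the middle 50% of all genes tested, from -0.32 to 0.34. BCL2A1, BBC3, PMAIP1 and BCL2L11 lie at 1.05 or higher, BCL2L1 at -1.09, and BAX, BAK1 and BID lie within the band.

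Past a log2 change of 1 in either direction, 4 members were higher (BCL2A1, BBC3, PMAIP1 and BCL2L11) and 1 was lower (BCL2L1), whereas 5.23% of all genes tested rose and 3.30% fell by that much. To show what lies at the starts of these 5 genes, promoter windows were taken from RefSeq (GRCh38.p14), which had entries for 9 of the 10 members; MCL1 had none. Each window runs from 250 bases before to 50 bases after an annotated start and is written 5′ to 3′ on the strand of the gene. Capitals mark matches, on either strand, to the motifs described after them.
PMAIP1, chr18:59899746-59900045, plus strand: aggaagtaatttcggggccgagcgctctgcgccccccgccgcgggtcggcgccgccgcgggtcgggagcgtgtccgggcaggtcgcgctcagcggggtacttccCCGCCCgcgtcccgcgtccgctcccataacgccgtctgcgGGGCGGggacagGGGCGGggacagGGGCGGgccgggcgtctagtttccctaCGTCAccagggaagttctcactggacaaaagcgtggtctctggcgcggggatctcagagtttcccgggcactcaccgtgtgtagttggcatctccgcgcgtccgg
BBC3, chr19:47232618-47232917, minus strand: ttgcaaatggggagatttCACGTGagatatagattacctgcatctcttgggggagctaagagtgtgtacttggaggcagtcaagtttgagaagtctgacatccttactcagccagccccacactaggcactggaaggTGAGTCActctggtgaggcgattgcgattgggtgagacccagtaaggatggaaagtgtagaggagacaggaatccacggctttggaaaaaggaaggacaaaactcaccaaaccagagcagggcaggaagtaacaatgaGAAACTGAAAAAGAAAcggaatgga
BCL2L11, chr2:111120664-111120963, plus strand: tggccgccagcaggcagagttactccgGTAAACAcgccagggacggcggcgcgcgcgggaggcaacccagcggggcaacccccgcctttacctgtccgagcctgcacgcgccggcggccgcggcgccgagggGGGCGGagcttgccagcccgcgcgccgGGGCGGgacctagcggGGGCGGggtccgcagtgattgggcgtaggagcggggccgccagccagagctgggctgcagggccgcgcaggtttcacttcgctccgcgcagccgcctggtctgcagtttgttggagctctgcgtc
BCL2A1, chr15:79971147-79971446, minus strand: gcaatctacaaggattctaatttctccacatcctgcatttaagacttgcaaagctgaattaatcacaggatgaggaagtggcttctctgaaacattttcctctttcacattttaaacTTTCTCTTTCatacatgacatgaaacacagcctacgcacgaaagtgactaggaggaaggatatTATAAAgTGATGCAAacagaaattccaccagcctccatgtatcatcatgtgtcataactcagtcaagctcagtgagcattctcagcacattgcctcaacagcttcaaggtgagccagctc
BCL2L1, upstream start, chr20:31723914-31724213, minus strand: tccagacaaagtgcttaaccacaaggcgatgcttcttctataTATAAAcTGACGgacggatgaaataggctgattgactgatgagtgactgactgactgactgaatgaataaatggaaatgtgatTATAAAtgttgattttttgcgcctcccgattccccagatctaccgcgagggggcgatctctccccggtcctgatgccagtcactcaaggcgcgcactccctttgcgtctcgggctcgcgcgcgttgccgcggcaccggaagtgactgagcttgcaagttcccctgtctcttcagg
BCL2L1, downstream start, chr20:31722819-31723118, minus strand: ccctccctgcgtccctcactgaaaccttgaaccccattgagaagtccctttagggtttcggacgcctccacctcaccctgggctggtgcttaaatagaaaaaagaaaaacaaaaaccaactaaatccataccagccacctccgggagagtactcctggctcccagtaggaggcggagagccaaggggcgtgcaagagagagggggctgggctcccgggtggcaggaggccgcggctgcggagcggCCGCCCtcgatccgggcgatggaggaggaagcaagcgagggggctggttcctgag

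The windows of the 4 genes that rose together were not of 1 type. Which starts these cells use was not measured. PMAIP1 and BCL2L11 had 42 and 39 CG pairs, BBC3 and BCL2A1 had 5 and 2, and the median over all 35116 windows was 14. The GC box GGGCGG, held by 45.0% of all windows, matched 4 times in the PMAIP1 window and 3 times in the BCL2L11 window, and not in those of BBC3 and BCL2A1. The ISRE-like repeat, GAAA and GAAA 2 bases apart, the type of element read by interferon-responsive factors and held by 3.57% of all windows, matched once in the BCL2A1 window and at 2 overlapping places in the BBC3 window. The AP-1 motif TGANTCA (7.71% of windows) matched in the BBC3 window, as did the E-box CACGTG (7.26%). The FOXO motif GTAAACA (3.42%) matched in the BCL2L11 window and the C/EBP-ATF element TTGCATCA (0.866%) in the BCL2A1 window. The CRE half-site TGACG (24.6%) matched in the PMAIP1 window and in the upstream BCL2L1 window. The TATA box letters TATAAA (11.5%) matched at bases 181 to 186 of the BCL2A1 window. In the upstream BCL2L1 window they matched at bases 43 to 48 and 126 to 131. The annotated start follows base 250 of each window, and whether these letters act as TATA boxes was not tested. The kB motif, GGGA and TTCC 2 bases apart (1.61% of windows) had no match in any member's window; these letters may lie outside the windows. Apart from the ISRE-like places in BBC3, no matches overlapped in the windows shown.

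Levels were compared between genes per kilobase of the gene length in the deposited table. In sh-CBX7 the order of mean CPM per kilobase was PMAIP1 at 115.1 ± 6.08, MCL1 at 80.6 ± 1.31, BAX at 48.1 ± 3.14, BAK1 at 46.9 ± 1.49, BID at 39.8 ± 1.22, BCL2L1 at 23.8 ± 0.76, BCL2A1 at 23.1 ± 2.68, BBC3 at 14.1 ± 1.07, BCL2L11 at 3.28 ± 0.08 and BCL2 at 0.33 ± 0.06 (SD, n = 3). In that order the libraries of neighbours overlapped for BAX with BAK1 and for BCL2L1 with BCL2A1. In sh-Control the order was MCL1 at 56.9 ± 1.11, PMAIP1 at 55.2 ± 3.77, BCL2L1 at 50.7 ± 3.60, BAK1 at 42.6 ± 3.25, BAX at 40.2 ± 2.94, BID at 35.7 ± 2.40, BCL2A1 at 7.35 ± 1.24, BBC3 at 5.76 ± 1.02, BCL2L11 at 1.59 ± 0.16 and BCL2 at 0.49 ± 0.06 (SD, n = 3). There the libraries overlapped for MCL1 with PMAIP1, PMAIP1 with BCL2L1, BAK1 with BAX, BAX with BID, and BCL2A1 with BBC3. BCL2L1 thus held place 6 in sh-CBX7, where its libraries overlapped those of BCL2A1, and place 3 in sh-Control. With the longest annotated transcript in place of the deposited length, PMAIP1 was still first in sh-CBX7. Below it, BAX at 91.6 CPM per kilobase then stood above MCL1 at 89.6, and BID at 70.85 above BAK1 at 46.9. BBC3 and BCL2A1 were both at 24.3 there. In sh-Control, BAX came first and MCL1 took place 5. The order among the 6 highest sh-Control genes, and that below PMAIP1 in sh-CBX7, thus depended on the length used.

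The make-up of the 4 pro-survival members differed more than their sum. The 4 pro-survival members summed to 128.1, 130.2 and 125.2 CPM per kilobase in the sh-CBX7 libraries, against 117.5, 111.5 and 117.2 CPM per kilobase in the sh-Control libraries. Of these sums, MCL1 made up 63.1% ± 1.5 in sh-CBX7 and 49.3% ± 2.35 in sh-Control, BCL2L1 18.7% ± 0.78 in sh-CBX7 and 43.9% ± 1.89 in sh-Control, and BCL2A1 18.0% ± 1.76 in sh-CBX7 and 6.36% ± 0.96 in sh-Control (SD, n = 3 each). No library of one group reached the range of the other for these shares. The ratio of BCL2L1 to MCL1 per kilobase was 0.311, 0.283 and 0.293 in the sh-CBX7 libraries, against 0.943, 0.803 and 0.930 in the sh-Control libraries. With the longest transcript it averaged 0.338 in sh-CBX7 and 1.02 in sh-Control, so which of these genes was higher in sh-Control depended on the length.

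The 4 BH3-only members summed to 169.2, 178.0 and 169.3 CPM per kilobase in the sh-CBX7 libraries, against 98.4, 99.7 and 96.8 CPM per kilobase in the sh-Control libraries, 1.75 times as much. PMAIP1 made up 66.8% ± 1.55 of that sum in sh-CBX7 and 56.2% ± 3.52 in sh-Control (SD, n = 3 each). With the longest transcript as the length these shares were 57.0% in sh-CBX7 and 45.6% in sh-Control, where BID then held as large a share, 45.8%. The BH3-only sum over the pro-survival sum was 1.32, 1.37 and 1.35 in the sh-CBX7 libraries, against 0.837, 0.894 and 0.826 in the sh-Control libraries. With the longest transcript as the length, this ratio averaged 1.60 ± 0.02 in sh-CBX7 and 1.02 ± 0.04 in sh-Control. The effectors BAX and BAK1 summed to 93.1, 93.1 and 98.9 CPM per kilobase in the sh-CBX7 libraries, against 88.5, 76.7 and 83.0 in the sh-Control libraries. BAX over BCL2L1 per kilobase was 1.83, 2.07 and 2.16 in the sh-CBX7 libraries, against 0.805, 0.791 and 0.780 in the sh-Control libraries. With the longest transcript this ratio averaged 3.03 in sh-CBX7 and 1.19 in sh-Control, so whether BAX lay above or below BCL2L1 in sh-Control depended on the length, while the ratio between the groups did not. These sums and ratios describe transcripts of the 10 members alone and were given no test. Other BCL2 family genes, such as BAD, BMF, BIK and BCL2L2, were left out, and ratios that held them would differ. Of these, BAD was not called, at 45.5 CPM in sh-CBX7 and 46.9 CPM in sh-Control, and BMF, BIK and BCL2L2 were called higher.

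**Figure D3:**
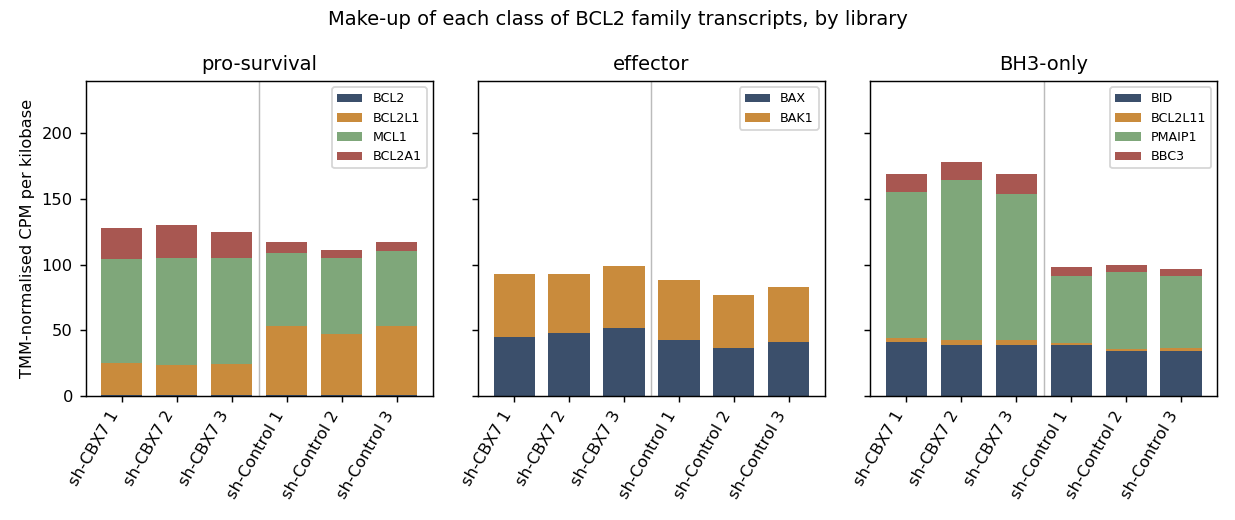
Stacked CPM per kilobase of the pro-survival, effector and BH3-only members in each library, with the 3 sh-CBX7 libraries left of the 3 sh-Control libraries in each panel. The pro-survival sum is close between groups but holds less BCL2L1 (18.7% in sh-CBX7, 43.9% in sh-Control) and more MCL1 and BCL2A1, and the BH3-only sum is larger in sh-CBX7, with PMAIP1 at 66.8% of it there (56.2% in sh-Control).

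The sequence around the fall of BCL2L1 was examined because genes whose 3′ UTR holds the 7-base sequence CTCTGCT were already known, from an earlier look at these data, to lie lower in sh-CBX7. Its coding transcript (GENCODE 29, minus strand) holds the sequence at 2 places in a 3′ UTR of 1497 bases, shown here 5′ to 3′ with the match in capitals.
BCL2L1 place 1, chr20:31665904-31665910: cccacccccttCTCTGCTccaccacatcct
BCL2L1 place 2, chr20:31664766-31664772: caccccgggctCTCTGCTgtacatatttga

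None of the other 9 members held CTCTGCT in the 3′ UTR of the transcript used. Over tested genes with a 3′ UTR of at least 50 bases, the median log2 fold change was -0.20 for the 551 genes with 2 or more matches, -0.12 for the 1894 with 1 match and 0.01 for the 9636 without. Of those 3 groups, 46.5%, 39.2% and 27.1% of genes were called lower. This shift was the reason for examining the sequence, so these values restate it and are no separate support. Genes with more matches also had longer 3′ UTRs, with medians of 3598, 2113 and 845 bases. A fall as large as that of BCL2L1 was met by 8.35%, 4.75% and 1.93% of the groups, and 19.6%, 21.7% and 28.5% of their genes were called higher. Among the lists described next, XIAP, MFN1, NFKB1 and BCL2L2 held 1 match each; XIAP and NFKB1 were called lower and MFN1 and BCL2L2 higher. The part of these matches in the fall of BCL2L1 was not tested.

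**Figure D4:**
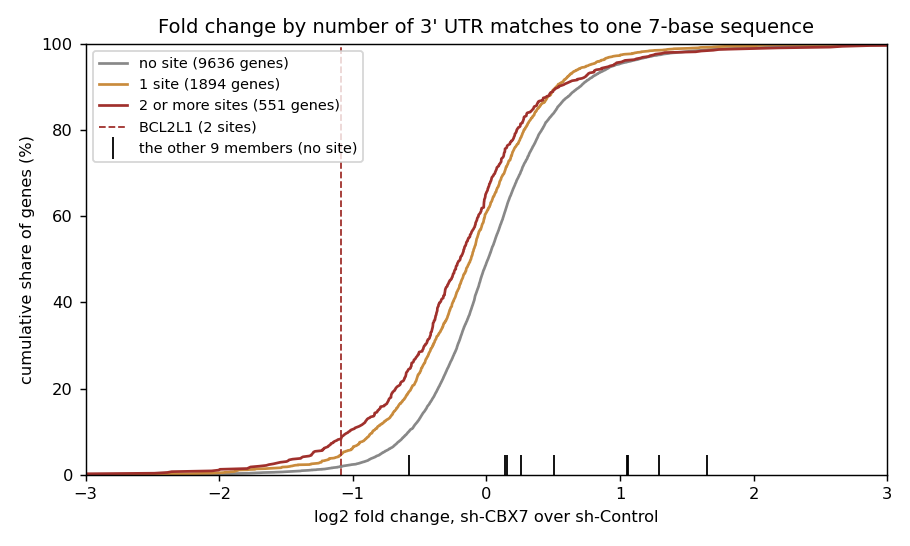
Cumulative share of tested genes (%) against log2 fold change (sh-CBX7 over sh-Control), by the number of 3′ UTR matches to CTCTGCT; the dashed line marks BCL2L1, with 2 matches, and the ticks mark the other 9 members, with none. The curves shift to lower values with more matches (medians 0.01, -0.12 and -0.20), and BCL2L1 at -1.09 lies in the lower tail of each.

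Of 13 other BCL2 family genes, 9 were tested, with 4 higher and 3 lower in sh-CBX7 (over all genes tested, 26.1% and 27.2%). Their median log2 fold change was 0.00. BCL2L12, a less typical family member, was at 61.2 ± 1.73 CPM in sh-CBX7 and 99.7 ± 9.14 CPM in sh-Control (SD, n = 3 each; log2 fold change -0.70, edgeR adjusted p = 1.53e-08). BMF, a BH3-only gene, was at 27.1 ± 1.25 CPM in sh-CBX7 and 18.9 ± 0.62 CPM in sh-Control (log2 fold change 0.52, edgeR adjusted p = 5.53e-05). The mitophagy receptors BNIP3 and BNIP3L moved in opposite directions, at log2 fold changes of -0.31 and 0.32, and BCL2L13 fell by 0.21. BIK, another BH3-only gene, had 5.997, 3.68 and 3.27 CPM in the sh-CBX7 libraries, against 2.71, 2.53 and 2.88 CPM in the sh-Control libraries. Its log2 fold change of 0.68 (edgeR adjusted p = 0.0148) rested on sh-CBX7 replicate 1, without which it was 0.36 (edgeR adjusted p = 0.212). BAD and BOK were not called, at log2 fold changes of -0.04 and 0.00, and HRK, BCL2L10, BCL2L14 and BCL2L15 had too few counts to be tested. Without sh-CBX7 replicate 1, 2 in place of 4 of these genes were higher, since BCL2L2 (log2 fold change 0.20) also lost its call.

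Among 21 genes of the mitochondrial death machinery, 4 were higher and 10 lower (over all genes tested, 26.1% and 27.2%). Their median log2 fold change was -0.16. XIAP, which inhibits caspases, was at 10.2 ± 0.66 CPM in sh-CBX7 and 19.3 ± 0.89 CPM in sh-Control (SD, n = 3 each; log2 fold change -0.92, edgeR adjusted p = 2.57e-07). The outer membrane channels VDAC1 and VDAC2 fell by 0.71 and 0.53 on the log2 scale, the intermembrane flavoprotein AIFM1 by 0.78 and the mitochondrial fusion gene MFN2 by 0.62. APAF1 and CASP9, the scaffold and initiator caspase of the apoptosome, were not called, at log2 fold changes of 0.02 and -0.16. DIABLO counts were low, at 35 to 45 in sh-CBX7 and 15 to 28 in sh-Control, in a row that overlaps a second row of the same name, so its log2 fold change of 0.72, whose call was lost in 7 of 14 alternative fits, is uncertain.

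Of 15 factors known to act on transcription of family members, 14 were tested. Of these, 5 were higher and 4 lower (over all genes tested, 26.1% and 27.2%), with a median log2 fold change of -0.04. DDIT3, the stress factor CHOP that acts on BBC3 and BCL2L11, had 71.9, 77 and 72.2 CPM in the sh-CBX7 libraries, against 24.2, 25.1 and 27.1 CPM in the sh-Control libraries. It rose by 1.53 on the log2 scale (SE 0.07, edgeR adjusted p = 7.82e-14), and the related stress factors ATF3 and ATF4 rose by 1.27 and 0.44. MYC rose by 0.49, whereas the NF-kB subunit gene NFKB1 fell by 0.60. RNA levels of these factors do not show their activity.

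Of 9 genes that control turnover of member proteins, mostly MCL1, 4 were lower and 0 higher by edgeR. Over all genes tested, 27.2% were lower and 26.1% higher. Also 0 of the 9 were higher at an unadjusted p below 0.05, and 0 by DESeq2 or limma voom. The median log2 fold change was -0.13. HUWE1, a ubiquitin ligase for MCL1, was at 61.0 ± 2.82 CPM in sh-CBX7 and 103.3 ± 4.95 CPM in sh-Control (SD, n = 3 each; log2 fold change -0.76, edgeR adjusted p = 1.44e-09). The ligase subunits BTRC and CUL5 fell by 0.66 and 0.51 on the log2 scale, and the kinase gene GSK3A by 0.18, a call lost in 6 of 14 alternative fits. FBXW7, another MCL1 ligase, and USP9X, which removes ubiquitin from MCL1, were not called, at log2 fold changes of 0.26 and -0.13. Without sh-Control replicate 1, USP9X was called lower, at a log2 fold change of -0.26 (edgeR adjusted p = 0.00132).

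**Figure D5:**
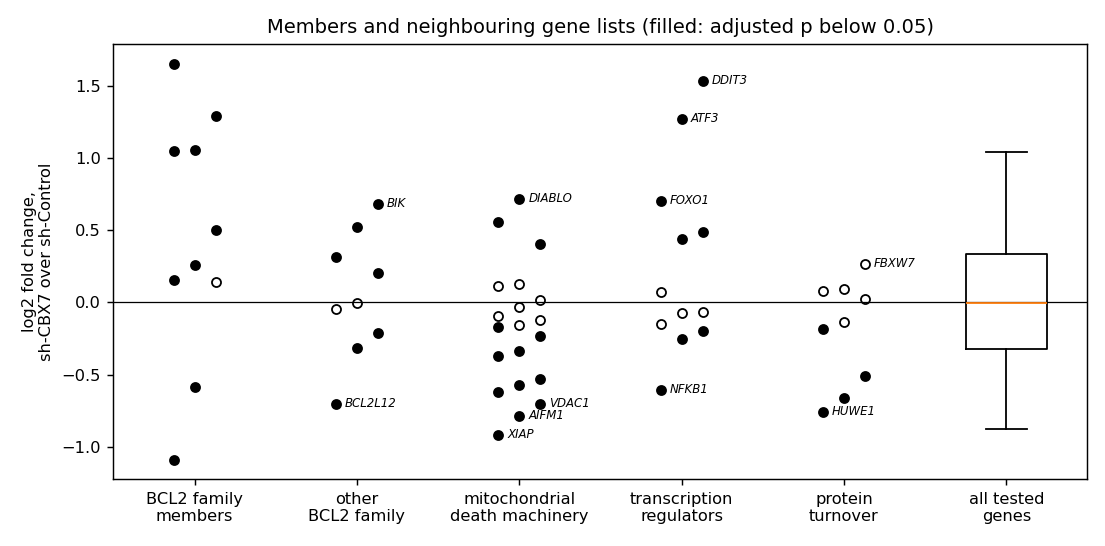
Log2 fold change (sh-CBX7 over sh-Control) of genes in the BCL2 family members and 4 neighbouring lists, without genes not reported here, filled where the edgeR adjusted p was below 0.05; the box shows the quartiles of all genes tested and its whiskers the 5th and 95th percentiles, -0.87 and 1.04. BCL2A1, BBC3, PMAIP1 and BCL2L11 among the members and DDIT3 and ATF3 among the regulators lie above the upper whisker, and BCL2L1 and XIAP lie below the lower one.

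Among 11938 other protein-coding genes whose mean reached 1 CPM, the patterns nearest to that of BCL2L1, by root mean square difference of centred log2 CPM over the 6 libraries, were FXYD5 (0.03), IAH1 (0.03) and FANCG (0.04), which fell by 1.10, 1.07 and 1.06 on the log2 scale. Nearest to BCL2A1 were VNN1 (0.10), CPNE5 (0.11) and CDKN1A (0.12), which rose by 2.01, 1.70 and 1.59. VNN1 was low, with a mean of 0.98 CPM in sh-Control. Patterns were matched over the libraries of both groups, so similar fold changes follow from that choice.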

How the data were processed

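The authors' deposited table holds raw, unnormalised counts per gene. The submitters' processing notes list HISAT2 2.0.5, featureCounts 1.5.0-p3, Trimmomatic and FastQC. They name hg19, but the table's coordinates matched GENCODE 29 on GRCh38 for 58724 of 58735 genes (99.98%), so GRCh38 positions are given. The deposited gene length column, a value of the authors in bases, served for CPM per kilobase. Columns named siCBX7 were matched to the sh-CBX7 labels by target and replicate number.

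Counts were filtered with filterByExpr, normalised with TMM and tested with edgeR 4.0.16 (R 4.3.3) in an unpaired quasi-likelihood fit over 14573 genes, tested on simulated data first. SE is the log2 fold change over the square root of F. Alternatives were DESeq2 1.42.0, limma 3.58.1 voom, other normalizations and filters, the replicate number as a block, a minimum log2 fold change of 1 and leaving out each library. Within groups, library pairs differed by more than sampling noise (chi-square per gene 2.85 to 9.23).

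The members and lists were chosen with earlier results of these data known. Named genes are CBX7, the members, up to 6 genes per list by smallest p with the uncalled or untested genes a count needs, and the nearest patterns; BAK1P1, MIR4435-2HG, ABALON, DIABLO, BCL2L2, MFN1, HTRA2 and STAT3 were named after their values were seen. The CTCTGCT description was added after seeing the data. MARCH5, spelled as a date in the table, was matched by ID. Human 3′ UTRs and transcript lengths came from GENCODE 29, with 1 coding transcript per gene. Results for some listed genes are not reported here, though the counts of each list include all its tested genes.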

Additional observations from a re-analysis of the deposited data

How the results depend on the processing

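Over 14 alternative fits, 7 members (BCL2L1, MCL1, BCL2A1, BAX, BCL2L11, PMAIP1 and BBC3) kept direction and call, BCL2 lost its call in 1, and no member changed sign in any of them. BID lost its call in 6 fits, also without the low count filter (edgeR adjusted p = 0.0556), and BAK1 gained one in 4: library size alone (0.0452), upper quartile (0.0159), the replicate block (0.0368) and without sh-Control replicate 1. Members called higher thus numbered 6 to 8 and lower 1 to 2 without 1 library. With a minimum log2 fold change of 1, by construction, 762 genes were higher and 481 lower over all genes, 4 and 1 among the members, 0 and 0 among the other BCL2 family genes, 1 and 0 in the death machinery, 2 and 0 among the regulators, and 0 turnover genes were lower. Other BCL2 family genes called higher numbered 2 to 4 without 1 library and 2 with DESeq2. HTRA2 lost its call in 8 of 14 fits, DIABLO and BCL2L2 in 7 each, GSK3A in 6, and STAT3 and BIK in 2 each. USP9X gained a call in 1 fit, and the cause of these changes was not tested. With the replicate block 3972 genes were higher and 4126 lower, and 8 and 2 members. Deviations from group means correlated at 0.071, 0.078 and 0.037 between same-numbered libraries and at -0.074 to 0.002 between others, so each correlated best with its own number, but the labels give no shared batch. Of 60 member levels in CPM under other normalizations, 59 moved by less than 1 SD, whereas 16 of 20 levels per kilobase moved by more with the longest transcript. Low counts limit BCL2 (SE 0.18) more than MCL1 (SE 0.05).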
